A study of Homo sapiens with 12 samples.

Results

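CDC42 and MAPK9, which encode downstream effectors of non-canonical Wnt signaling, are 2 of the 199 genes counted on an nCounter stem cell panel in LX-2 cells, an established line of activated human hepatic stellate cells (HSCs). Both were taken by name, with earlier results of these data known. CDC42 was read from the entry NM_001039802.1 and MAPK9 from NM_002752.3. The cells received miR-25-3p (miR-25) mimic or a control mimic with a Caenorhabditis elegans sequence, both used at 10 pmol/ml, and RNA was harvested after 24 h or 48 h. There were 3 transfections per time point, lettered A, B and C in the labels, and each gave 1 control and 1 miR-25 sample, so that 12 samples formed 6 pairs in 4 groups of 3. All samples are of 1 cell line, and transfection was incomplete. The transfection efficiency in the labels was 0.59, 0.75 and 0.81 in A, B and C at 24 h and 0.42, 0.61 and 0.65 at 48 h. In the study it was the share of fluorescent cells in a parallel well that received a labelled control miRNA, not a measure of the samples themselves. The labels also give relative miR-25 expression, with the control samples at 1. In the miR-25 samples of A, B and C it was 62.34, 192.53 and 350.13 at 24 h. At 48 h it was 347.45, 482.36 and 681.22. The letters were not found to link transfections of different time points.

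Non-canonical Wnt signaling runs from Wnt ligands such as WNT5A through Frizzled receptors and Dishevelled proteins without the use of β-catenin. One arm acts on small GTPases, among them CDC42, which organises the actin cytoskeleton and cell polarity. Another leads to the c-Jun N-terminal kinases, of which MAPK9 encodes JNK2. In HSCs, small GTPases and JNK are known for their part in contraction, migration and the activated state.

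The sequences below are those the counts depend on: the miRNA that was added, with its seed (bases 2 to 8) in capitals, and parts of the transcripts that the panel probes bind. The mature miR-25 sequence is that of RefSeq, at chr7:100093571-100093592 on the minus strand of GRCh38.p14. The MAPK9 target is printed whole, at 100 bases, and of the CDC42 target, also 100 bases long, the first 30 are printed.
hsa-miR-25-3p: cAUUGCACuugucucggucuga
MAPK9 panel target: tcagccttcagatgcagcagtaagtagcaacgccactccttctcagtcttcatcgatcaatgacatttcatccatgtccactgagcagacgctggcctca
CDC42 panel target, start: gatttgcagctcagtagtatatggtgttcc
The letters that pair with seed bases 2 to 8 are GTGCAAT on the transcript strand, and those that pair with bases 2 to 7 are TGCAAT, which lies within the longer match. Neither was found in the CDC42 or the MAPK9 target. Among the 193 panel targets with a sequence, 0 held GTGCAAT and 3 (1.55%) held TGCAAT. The targets are short windows, so this says nothing of the rest of either transcript. The GC content was 46% for CDC42 and 50% for MAPK9, and the longest run that either target shared with another target of the panel was 10 bases. With MAPK10, which encodes the related kinase JNK3, the MAPK9 target shared at most 8 bases in a row.

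The total count over the genes was 321243 to 409581 at 24 h and 107377 to 200821 at 48 h, so levels are given per 100,000 counts of the sample. Both genes were above the background of the negative control probes, 5.52 to 16.5 counts per sample, in all 12 samples. The 4 genes taken as markers of a stellate or myofibroblast line (COL1A1, CDH2, CD44 and PLAU) were above background in every sample. Their summed level was 4001 to 5141 per 100,000. The study places CDH2, CD44 and PLAU with focal adhesion and cell junctions, so their detection does not by itself identify stellate cells. Of 3 epithelial, 4 T cell and 3 neural markers, none was above background in all 12 samples. CD4 was above it in 11 samples, GJB1 in 10 and SOX1 in 8, and the rest of these lists in 5 or fewer. The epithelial markers summed to 6.18 to 14.2 per 100,000. For the T cell markers the sum was 10.3 to 29.1, and for the neural markers 3.49 to 11.2. Of 2 pluripotency markers 1 was above background in all 12 samples, with a sum of 9.52 to 21.2 per 100,000 for both. At 48 h, transfection A stood apart from B and C in its control and its miR-25 sample alike, so the edgeR tests of 48 h samples are given with and without it.

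CDC42 was lower at 48 h than at 24 h in every sample, and the time points did not overlap. In the control samples at 24 h the level was 1269, 1251 and 1187 per 100,000 in A, B and C, and in the miR-25 samples it was 1166, 1193 and 1148. At 48 h it was 826, 1084 and 1062 in the control samples and 776, 1058 and 1068 in the miR-25 samples. The highest 48 h value thus lay below the lowest 24 h value in both kinds of sample, and A was the lowest at 48 h. How many other genes of the panel also showed no overlap was not counted, so this is not shown to be particular to CDC42. The means were 1236 ± 43.2 and 991 ± 143 (SD, n = 3) in the control samples, a ratio of 0.802. In the miR-25 samples they were 1169 ± 22.6 and 967 ± 166 (SD, n = 3), a ratio of 0.827.

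MAPK9 did not separate by time point and varied most with 1 transfection of 48 h. In the control samples the level was 443, 536 and 516 per 100,000 in A, B and C at 24 h and 183, 495 and 522 at 48 h. In the miR-25 samples it was 427, 506 and 510 at 24 h and 203, 531 and 532 at 48 h. Transfections B and C at 48 h lay within or near the 24 h range, whereas A lay far below it. The means were 499 ± 48.9 and 400 ± 188 (SD, n = 3) in the control samples and 481 ± 47.0 and 422 ± 190 (SD, n = 3) in the miR-25 samples.

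**Figure D1:**
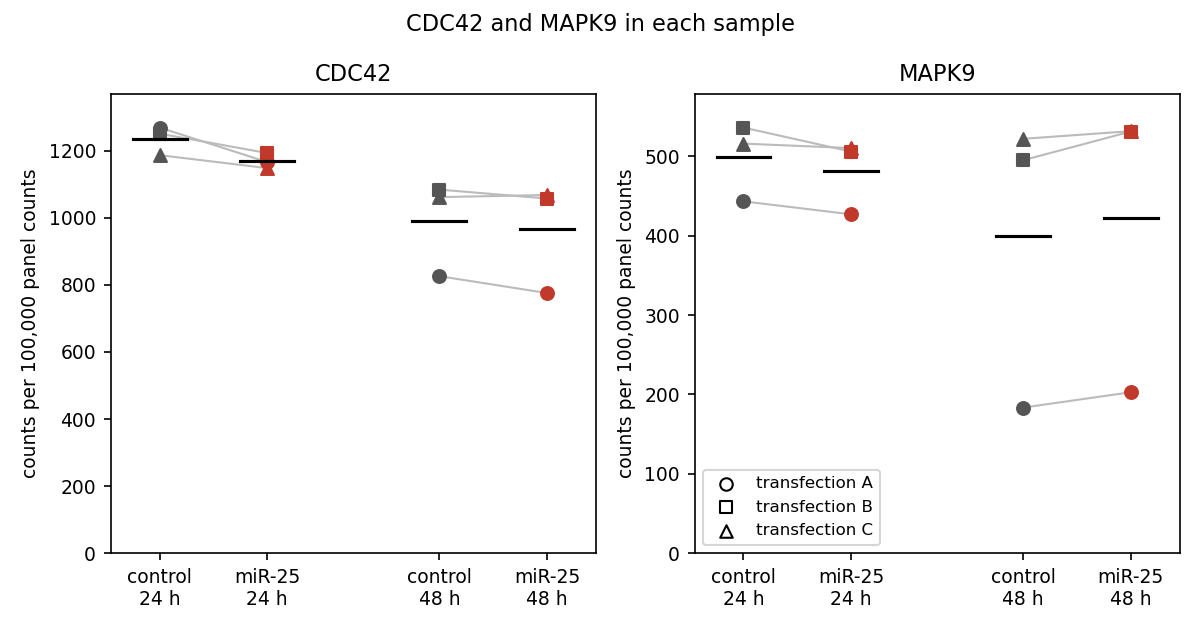
Counts per 100,000 panel counts of CDC42 (left) and MAPK9 (right) in each of the 12 samples, by group, with grey lines joining the samples of 1 transfection and black bars at the group means. CDC42 lay lower at 48 h in every sample, while for MAPK9 the 48 h samples of transfection A, at 183 and 203, lay apart from all others.

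The first comparison asked whether either transcript changed between the time points. Counts entered edgeR's quasi-likelihood test, with Benjamini-Hochberg adjustment over the 136 genes whose mean count reached 20. In the control samples CDC42 fell short of the threshold, with a log2 fold change of -0.32 (SE 0.126, edgeR adjusted p = 0.139). In the miR-25 samples the log2 fold change was -0.27 (SE 0.139, edgeR adjusted p = 0.235). That of MAPK9 was -0.31 (SE 0.346, edgeR adjusted p = 0.551) in the control samples and -0.19 (SE 0.337, edgeR adjusted p = 0.699) in the miR-25 samples. Neither gene was thus among the 7 genes (5.15%) called in the control samples or the 10 (7.35%) called in the miR-25 samples, of which 3 (2.21%) and 6 (4.41%) were lower at 48 h. An exact two-sided permutation test on the log2 levels gave p = 0.1 for CDC42 in both kinds of sample, the smallest that 3 against 3 samples allow. For MAPK9 the exact permutation test gave p = 0.6 in the control and p = 1.0 in the miR-25 samples.

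Leaving out transfection A of 48 h changed both genes' results. A was singled out because it stood apart in these same counts, so leaving it out narrows the spread. Adjusted p-values without A, here and below, are therefore descriptive. CDC42 then fell by 0.20 on the log2 scale in the control samples and passed the test (SE 0.061, edgeR adjusted p = 0.0281), and fell by 0.14 in the miR-25 samples without passing it (SE 0.054, edgeR adjusted p = 0.0637). Relative to the 24 h mean, the mean of B and C was 0.868 in the control and 0.909 in the miR-25 samples. The log2 fold change of MAPK9 turned to 0.03 (edgeR adjusted p = 0.839) and 0.14 (edgeR adjusted p = 0.201). Without A many more genes passed, 54 (39.7%) in the control and 62 (45.6%) in the miR-25 samples, of which 17 (12.5%) and 24 (17.6%) were lower at 48 h. TMM scaling without A was a further setting, also chosen after seeing the data. CDC42 then passed in both kinds of sample (log2 -0.30 and -0.18, edgeR adjusted p = 0.0190 and 0.0328). In that setting 31 of the 136 genes were called higher and 29 lower at 48 h in the control samples, and 36 and 34 in the miR-25 samples.

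**Figure D2:**
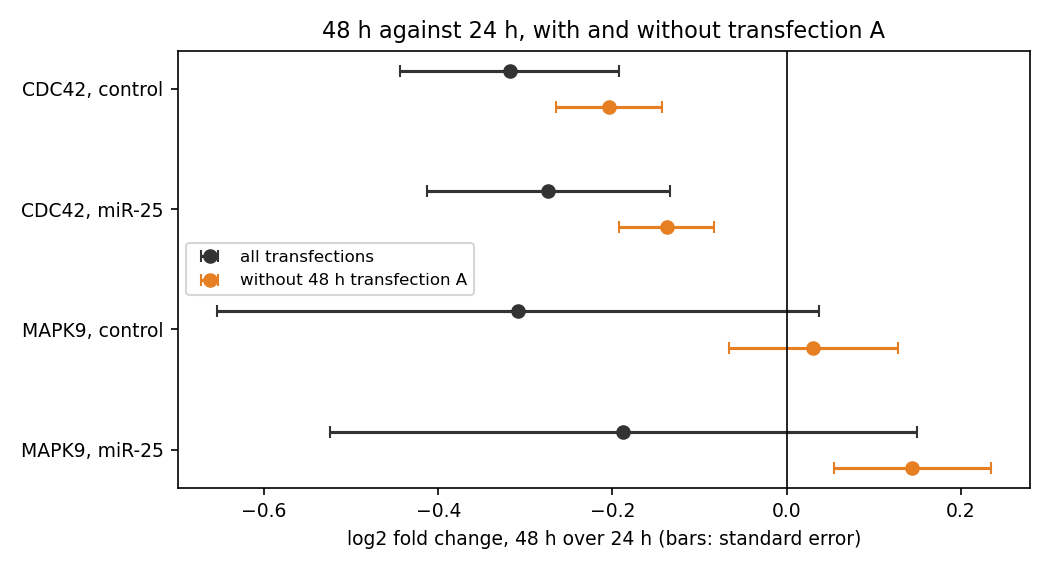
Log2 fold change of CDC42 and MAPK9 between 48 h and 24 h in control and miR-25 samples, with bars of 1 standard error, for all transfections (black) and without transfection A of 48 h (orange). CDC42 lay below 0 in each case, whereas MAPK9 moved from -0.31 to 0.03 in control and from -0.19 to 0.14 in miR-25 samples.

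The size of the change depended on the scale. The positive control probes, which detect RNA added in fixed amounts, summed to 76248 to 87475 counts at 24 h and 51306 to 59004 at 48 h, and the panel total fell further than they did. Scaled to these probes, the median of all genes tested moved by -0.64 in the control and -0.46 in the miR-25 samples on the log2 scale. CDC42 was then at -1.06 (edgeR adjusted p = 0.0339) and -0.82 (edgeR adjusted p = 0.0384), still below that median. MAPK9 was at -0.96 (edgeR adjusted p = 0.0554) and -0.69 (edgeR adjusted p = 0.192). In bulk RNA, fewer copies per cell and fewer cells with the transcript cannot be told apart. The study hybridised 50 ng of RNA per sample, and the probe sums and panel totals did not overlap between the time points. RNA input, RNA quality and assay yield thus cannot be told apart from time either, and their part was not tested.

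Transfection A of 48 h was compared with B and C gene by gene, as a description of 1 transfection and without a test. The level of MAPK9 in A was 0.361 times the mean of B and C in the control sample and 0.381 times in the miR-25 sample, or 2.77 and 2.62 times lower. B and C differed from each other by 1.05-fold and 1.00-fold. By the mean of both samples MAPK9 ranked 7 from the lowest among the 136 genes. At 24 h its level in A was 0.843 and 0.840 times the mean of B and C.

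CDC42 stood less far apart in the same transfection. Its level in A at 48 h was 0.770 and 0.730 times the mean of B and C, and it ranked 33. At 24 h these values were 1.04 and 0.996. Of all genes tested, 16 (11.8%) were over 1.5-fold lower in A in both samples, MAPK9 among them and CDC42 not, and 9 (6.62%) were over 1.5-fold higher. For CDC42 this turned on the scale: its log2 ratio in the control and miR-25 samples was -1.02 and -0.83 with positive control probes, which is past 1.5-fold, and -0.047 and -0.21 with reference genes. MAPK9 was past 1.5-fold under each scaling run. The median gene differed between A and the mean of B and C by 1.29-fold in the control and 1.26-fold in the miR-25 samples at 48 h, against 1.11-fold and 1.09-fold at 24 h. GUSB, a reference gene of the panel, was 3.07 times lower in A. The transfection efficiency of A was also the lowest at 48 h, at 0.42. Both samples of A were labelled with this value, which came from a parallel well, and its part in these differences was not tested.

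**Figure D3:**
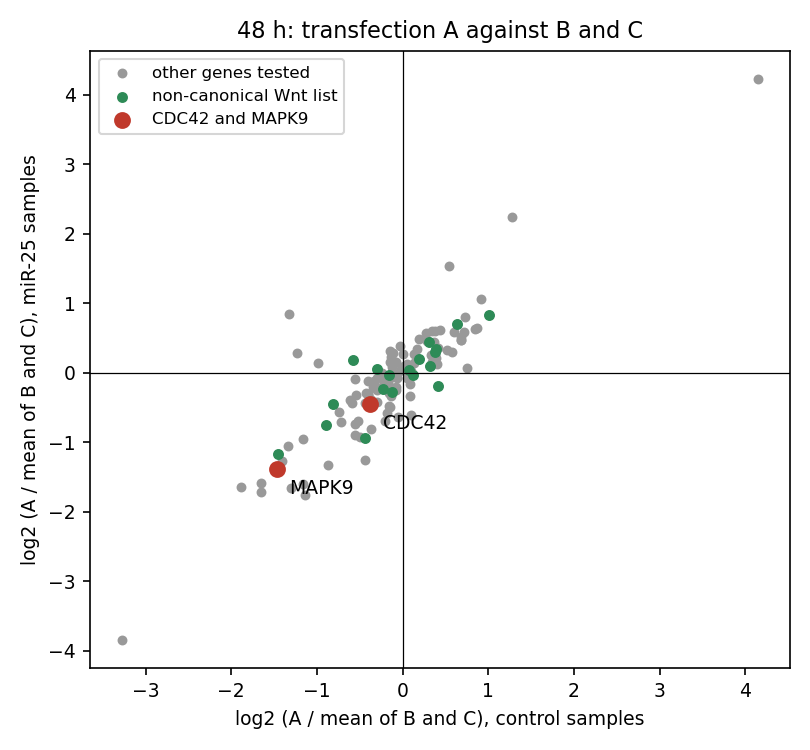
Log2 ratio of transfection A to the mean of B and C at 48 h for each of the 136 genes tested, in the control samples (horizontal axis) and the miR-25 samples (vertical axis). MAPK9 lies near -1.47 and -1.39 and CDC42 near -0.38 and -0.45 (red), with the genes of the non-canonical Wnt list in green.

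The second comparison asked whether miR-25 altered either transcript, within each transfection. For CDC42 the ratio of the miR-25 to the control sample was 0.919, 0.954 and 0.967 in A, B and C at 24 h and 0.939, 0.975 and 1.01 at 48 h. It was below 1 in 5 of 6 pairs, with means of 0.947 ± 0.025 at 24 h and 0.974 ± 0.033 at 48 h (SD, n = 3 pairs). The exact two-sided sign-flip permutation test over the 6 pairs gave p = 0.0625. In the fit with the transfection as a block the log2 fold change was -0.08 at 24 h (SE 0.037, edgeR adjusted p = 0.723), -0.04 at 48 h (SE 0.042, edgeR adjusted p = 0.734) and -0.06 over both (SE 0.029, edgeR adjusted p = 0.311).

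For MAPK9 the ratio was 0.963, 0.944 and 0.989 in A, B and C at 24 h and 1.11, 1.07 and 1.018 at 48 h. Every pair was thus below 1 at 24 h and above 1 at 48 h, with means of 0.965 ± 0.023 and 1.07 ± 0.044 (SD, n = 3 pairs). This pattern was shared by 2 of the 136 genes (1.47%), the other being HPRT1, a reference gene, and 4 genes showed the reverse. The log2 fold change was -0.05 at 24 h (SE 0.042, edgeR adjusted p = 0.858) and 0.08 at 48 h (SE 0.053, edgeR adjusted p = 0.540). The difference between the time points, tested itself, was 0.13 (SE 0.068, edgeR adjusted p = 0.631). Over the 6 pairs the sign-flip permutation test gave an exact p = 0.594.

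Neither gene passed the test in any of these comparisons. Of all genes tested, 0 (0%) passed at 24 h, 1 (0.735%) at 48 h, 0 (0%) over both time points, and likewise 0 (0%) for their difference. At an unadjusted p under 0.05 there were 9, 17, 21 and 8 genes. Without transfection A of 48 h, CDC42 was at -0.01 (SE 0.044, edgeR adjusted p = 0.902) and MAPK9 at 0.06 (SE 0.058, edgeR adjusted p = 0.837) at 48 h, and over both time points they were at -0.06 (edgeR adjusted p = 0.312) and -0.02 (edgeR adjusted p = 0.907). The difference of effects for MAPK9 was then 0.11 (SE 0.070, edgeR adjusted p = 0.836). Of all genes, 3 (2.21%) passed at 24 h without A, 1 (0.735%) at 48 h and 4 (2.94%) over both time points. No 24 h sample was left out here, but the fit shares its estimate of the spread over both time points. Counting error alone spanned 1 in all 6 pairs for MAPK9. For CDC42 it did so in 4 of 6, and in pairs A and B of 24 h the 95% interval, 0.883 to 0.956 and 0.915 to 0.994, lay below 1. These exact intervals cover counting error only.

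**Figure D4:**
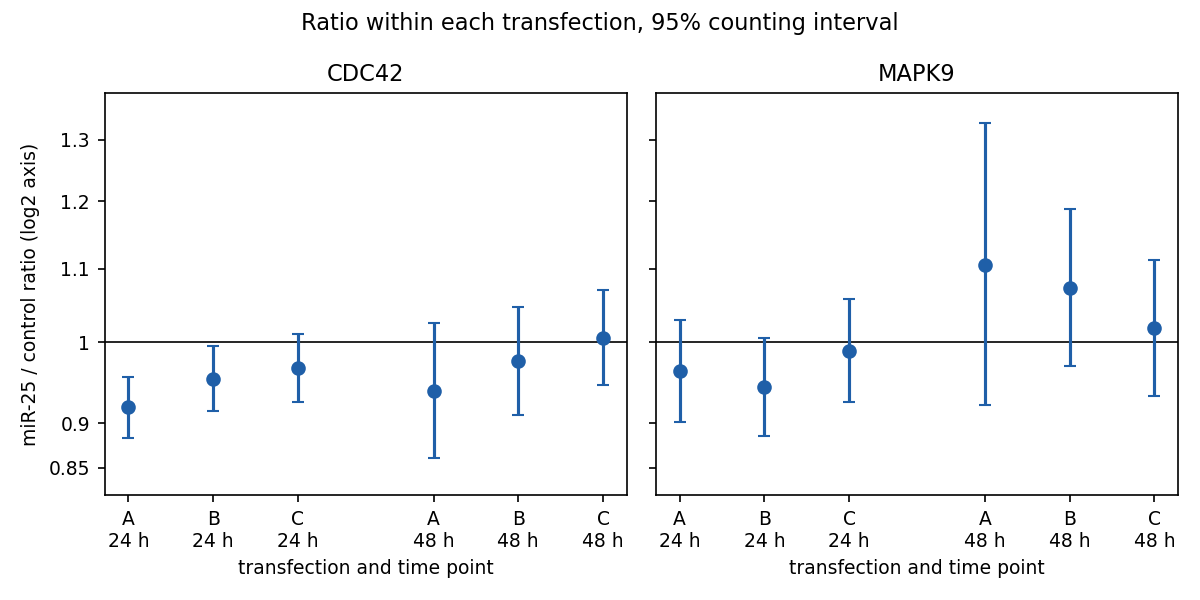
Ratio of the miR-25 to the control sample of each transfection for CDC42 (left) and MAPK9 (right) on a log2 axis, with 95% exact counting intervals. CDC42 ratios ran from 0.919 to 1.01, and those of MAPK9 lay below 1 at 24 h and above 1 at 48 h.

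The scale mattered here as well, and it turned the direction of CDC42 at 48 h but not that of MAPK9. With the positive control probes the median of all genes moved by 0.27 between control and miR-25 samples, MAPK9 was at 0.36 (edgeR adjusted p = 0.0229) and CDC42 at 0.25 (edgeR adjusted p = 0.0798), and 51 genes passed, all of them higher with miR-25. MAPK9 thus lay 0.09 above and CDC42 0.02 below that median.

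The study's procedure leaves genes whose average ratio is close to 1. Where the average is lower, the ratios are multiplied by the transfection efficiency, and where it is higher, they are divided by it. This moves the average away from 1, but a single pair on the other side of 1 can cross it. The procedure was repeated on counts after background subtraction. CDC42 in C at 48 h, with a ratio of 1.01 before these steps, was then at 0.654. For CDC42 the average of the 3 pairs at 24 h went from 0.947 to 0.680, and at 48 h it went from 0.973 to 0.548. For MAPK9 at 48 h it went from 1.07 to 1.99, with 2.64, 1.76 and 1.57 in A, B and C. At 24 h MAPK9 went from 0.965 to 0.692 where the side was taken from 24 h, and to 1.37 where it was taken from 48 h. A ratio within a few percent of 1 thus gave values on either side of it according to that choice.

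The other members of the pathway were read from a list of 22 genes, of which 19 were tested and WNT4, WNT11 and MAPK10 were too low. Between control and miR-25 samples none of the 19 passed at either time point or over both. FOSL1, a subunit of the transcription factor AP-1, was at 0.13 over both time points (SE 0.032, edgeR adjusted p = 0.0947). Without transfection A of 48 h it was at 0.12 over both time points and passed the test (SE 0.027, edgeR adjusted p = 0.000326), as did DVL3, which encodes a Dishevelled protein, at 0.17 (SE 0.050, edgeR adjusted p = 0.0320). FOSL1 then passed at 24 h too, at 0.14 (SE 0.030, edgeR adjusted p = 0.000259), and no gene of the list passed at 48 h. Of all genes tested, 3 (2.21%) passed at 24 h and 4 (2.94%) over both time points without A. The 24 h samples were the same as before, and only the estimate of the spread, shared by both time points, differed. The median of the list was 0.02 at 24 h and -0.03 at 48 h, beside 0.03 and -0.01 over all genes tested.

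Between the time points 1 of the 19 fell in the control samples and 2 in the miR-25 samples, and none rose, beside the 2.21% and 4.41% of all genes that were lower. Of all genes tested, 4 were called higher in the control and 4 in the miR-25 samples. The ligand WNT5B was at 357, 356 and 332 per 100,000 in A, B and C of the controls at 24 h and at 74.5, 113 and 165 at 48 h. It fell by 1.55 on the log2 scale in the control samples (edgeR adjusted p = 0.0140) and by 1.46 in the miR-25 samples (edgeR adjusted p = 0.0163). The receptor FZD7 fell by 0.61 in the miR-25 samples (edgeR adjusted p = 0.0260) and was at -0.58 in the control samples (edgeR adjusted p = 0.0771). The GTPases RHOA and RAC1, relatives of CDC42, were at 0.13 and -0.10 in the control samples (edgeR adjusted p = 0.396 and 0.472). The list's median was 0.12 in the control and 0.06 in the miR-25 samples, beside 0.13 and 0.09 over all genes. In transfection A of 48 h, WNT5B and FZD2 were over 1.5-fold lower in both samples and FZD3 and PRKCI over 1.5-fold higher, which is 2 of 19 each way beside the 11.8% and 6.62% of all genes.

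Without transfection A of 48 h, 7 of the 19 passed in the control samples, 4 higher and 3 lower at 48 h, and 11 in the miR-25 samples, 4 higher and 7 lower. The share of all genes was 39.7% and 45.6%. Among all genes tested, 37 were higher and 17 lower in the control samples, and 38 higher and 24 lower in the miR-25 samples. WNT5B was at -1.31 and -1.24 (edgeR adjusted p = 0.000212 and 8.37e-05) and FZD7 at -0.69 and -0.65 (edgeR adjusted p = 0.00669 and 0.00202). RHOA rose by 0.20 and 0.19 (edgeR adjusted p = 0.0231 and 0.0218), while RAC1 fell by 0.16 and 0.21 (edgeR adjusted p = 0.0321 and 0.00548). The list's median was -0.0095 and -0.0057, beside 0.11 and 0.07 over all genes.

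Likeness of pattern was measured as the SD, over the 12 samples, of the difference in log2 level between a pair of genes. Nearest to CDC42 were CCNA2 (SD 0.091), SMAD4 (0.113) and CTBP2 (0.121), against a median of 0.342 over the genes tested. Nearest to MAPK9 were MAML1 (0.107), ABCG2 (0.200) and JAG1 (0.272), against a median of 0.554. MAML1 was 2.69 times lower in transfection A of 48 h, close to the 2.70 of MAPK9. Between CDC42 and MAPK9 the SD was 0.374, above the median of 0.342 for CDC42 and below that of 0.554 for MAPK9. MAPK9 was at rank 79 from CDC42. The SD was 0.146 within 24 h and 0.531 within 48 h, where transfection A stood apart.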

How the data were processed

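Messenger RNA of LX-2 cells was counted with the nCounter Stem Cell Panel in 12 samples. The authors deposited raw counts per probe, without background correction or scaling, and no genome build applies to them. Names came from the panel sheet for 193 genes and from RefSeq for 6. Counts were divided by the total over the 199 genes and multiplied by 100,000. Samples were grouped by their labels, and control and miR-25 samples of a transfection were paired (r of deviations from group means 0.283 to 0.883). That replicates are separate cultures is taken from the labels. No 2 samples of a group agreed within sampling noise.

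The quasi-likelihood test of edgeR 4.0.16, in R 4.3.3, was run on genes whose mean count reached 20, with the total as library size and a threshold of 0.05 after Benjamini-Hochberg adjustment. MiR-25 was tested in all 12 samples with the transfection as a block, and time in the 6 control or 6 miR-25 samples. DESeq2 1.42.0, limma 3.58.1 (pseudocount 1), other scalings and filters, and each transfection left out were alternatives. Background was the mean of the 8 negative control probes plus 2 SD. Named genes were the members, the pathway list, the 3 genes most like each member, and reference genes where scaling turned on them. HPRT1 was named after its values were seen. The members and lists were chosen with earlier results of these data known. Permutation tests used scipy 1.17.1.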

Additional observations from a re-analysis of the deposited data

Results flagged for a closer look

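The effect of miR-25 on MAPK9 was flagged because all 3 pairs were below 1 at 24 h and all 3 above 1 at 48 h. Of the 136 genes tested, 2 (1.47%) had this pattern and 4 had the reverse, so it does not set MAPK9 apart. The difference between the time points was 0.13 on the log2 scale and did not pass the test (SE 0.068, edgeR adjusted p = 0.631).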

How the results depend on the processing

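The 12 log2 fold changes of CDC42 and MAPK9 were computed 216 times under other settings: 194 kept their direction and their side of the threshold, 7 newly passed it and 15 changed sign. At the depth of 48 h the 95% counting interval of each pair's ratio spanned 1 for both genes.

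Scaled to the positive control probes, miR-25 against control gave 0.014 for MAPK9 at 24 h, 0.25 for CDC42 and 0.36 for MAPK9 at 48 h, and 0.11 for CDC42 over both time points. Then 51 genes passed at 48 h, 32 over both and 1 for the difference of effects. CDC42 between time points was at -1.06 in the control and -0.82 in the miR-25 samples, with 26 and 50 genes called. DESeq2 gave -0.39 for CDC42 in the control samples (adjusted p = 0.0148) and called 22 and 33 genes. MAPK9 over both time points, near 0, was at -0.021 with TMM scaling, -0.0030 without GAPDH in the total, -0.0070 with reference genes, -0.020 with DESeq2, -0.00054 with no filter and -0.037 without 48 h transfection A and with TMM scaling, an alternative chosen after seeing the data. That alternative gave -0.30 and -0.18 for CDC42 and 0.10 for MAPK9 in miR-25 samples between time points, and 60 and 70 genes passed. For miR-25 it called 0 genes at 48 h, 1 for the difference of effects and 1 over both time points. The cause of these changes was not tested.

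Without the replicate block of transfections, 0 genes passed for miR-25 at 48 h, against 1 with it. CDC42 was at -0.06 and MAPK9 at 0.0079 over both time points in this unpaired fit, and it changed no call of either gene. Letters of different time points share only a letter (r -0.096 to 0.057), and with them as a replicate block 0 genes passed between time points, against 7 and 10. Each time point alone called 3 genes at 24 h and 3 at 48 h. At 48 h background subtraction with limma called 0 genes and no filter 3. For the difference TMM scaling, the total without GAPDH, DESeq2 and no filter each called 1 gene. In the miR-25 samples TMM scaling called 17 genes between time points, reference genes 4, no filter 6, and 4 group means over all samples 17.

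With each transfection left out in turn, the genes called ranged from 0 to 3 at 24 h, 0 to 2 at 48 h, 0 to 4 over both time points, 1 to 54 between time points in control and 0 to 62 in miR-25 samples. MAPK9 ranged from -0.017 to 0.024 over both time points, from -0.55 to 0.031 between time points in control and from -0.39 to 0.14 in miR-25 samples, and CDC42 from -0.39 to -0.20 and from -0.35 to -0.14.

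On the log2 scale, transfection A over B and C at 48 h was, for CDC42 in control and miR-25 samples, -0.21 and -0.33 with TMM scaling, -0.32 and -0.39 without GAPDH, -0.047 and -0.21 with reference genes (GUSB among them) and -1.02 and -0.83 with positive control probes. For MAPK9 it was -1.31 and -1.27, -1.41 and -1.32, -1.14 and -1.14, and -2.12 and -1.76 in the same order, and -1.40 in the miR-25 samples after background subtraction. MAPK9 at 24 h, corrected for transfection efficiency, was 1.37 with the side of 48 h.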
